A study of Homo sapiens with 12 samples.

Results

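The genes of 10 immune checkpoint ligands, CD274 (PD-L1), PDCD1LG2 (PD-L2), PVR, NECTIN2, CD276, VSIR, TNFRSF14, LGALS9, CD47 and CD200, were followed by RNA sequencing in 624Mel, an established human melanoma cell line. They were chosen by name and make up 10 of the 40173 gene IDs in the table. Of these 10, 6 passed a minimum mean of 2 TPM (a length-scaled share of all transcripts) in some condition and were tested among 12773 gene IDs, and the other 4 stayed under it. The cells had received a control siRNA (siCTRL) or an siRNA against MITF (siMITF), and 24 h later either no cytokine or 5 ng/mL interferon gamma (IFNγ) for 24 h. This gave 4 conditions, siCTRL, siCTRL + IFNγ, siMITF and siMITF + IFNγ, with 3 libraries each. The study asked how loss of MITF, the master regulator of the melanocyte lineage, alters the response of melanoma cells to IFNγ. All libraries come from 1 cell line. The study's methods call the replicates of its experiments independent and biological, without saying what separated the 3 libraries of a condition, and the p-values measure the spread between these libraries. RNA was taken from whole cultures, in which fewer cells expressing a gene and less RNA per cell cannot be told apart.

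Checkpoint ligands are surface or secreted proteins on tumour and antigen-presenting cells that bind receptors on T cells, NK cells or macrophages and dampen them. PD-L1 and PD-L2 bind PD-1 on T cells, PVR and NECTIN2 bind TIGIT and the activating receptor CD226, CD47 gives macrophages a "do not eat me" signal through SIRPα, and TNFRSF14 (HVEM) engages BTLA and CD160. IFNγ from T cells signals through the kinases JAK1 and JAK2 to the transcription factor IRF1, and PD-L1 is among the best known genes of that pathway in melanoma.

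The siRNA target was lowered as labelled: MITF had 158 to 246 TPM in the 6 siCTRL and siCTRL + IFNγ libraries and 36.0 to 55.1 TPM in the 6 libraries with siMITF. All 8 melanocyte lineage markers examined had at least 2 TPM, and their summed level, most of it PMEL and TYRP1 and including MITF itself, was 7377 to 9860 TPM with siCTRL and 2372 to 2882 TPM with siMITF. They did not all move alike: S100B had 81.8 ± 4.13 TPM (SD, n = 3) with siCTRL and 167 ± 4.42 TPM with siMITF, and SOX10 had 263 ± 3.18 and 226 ± 7.96 TPM. Of 8 leukocyte markers, 7 were under the minimum, with a sum of 0.447 to 1.45 TPM per library and CD3E at 0 in all 12. The eighth, CD68, encodes a lysosomal protein that is not confined to leukocytes. TPM hold no read numbers, so sequencing depth, counting error and a detection limit cannot be given for these libraries. Mitochondrial genes took 7.42% to 16.9% of the TPM, with the lowest share of each condition in the library numbered 2.

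IFNγ raised 3 of the 6 tested ligands in siCTRL cells and 4 in siMITF cells, and none was called lower. CD274 rose most, by 1.99 on the log2(TPM + 1) scale in siCTRL cells and by 3.21 in siMITF cells, and CD47 and NECTIN2 rose in both. CD274 passed the minimum through its IFNγ conditions alone. Its part in each count that sets IFNγ against no IFNγ, the interaction included, rests on that selection. TNFRSF14 passed the test in siMITF cells alone. CD276 had an effect of -0.31 in siMITF cells (limma adjusted p = 0.0573), and was called lower there in a fit blocked on the replicate number (0.00630). The test was limma on log2(TPM + 1) with 1 term per condition, and a gene was called with a Benjamini-Hochberg adjusted p under 0.05 over all tested genes. In the same fit 12.9% of all tested genes were called in siCTRL cells (6.8% higher and 6.14% lower) and 20.2% in siMITF cells (7.99% higher and 12.2% lower). The median effect of IFNγ over the 6 ligands was 0.39 in siCTRL cells, against -0.07 over all tested genes, and 0.54 in siMITF cells, against -0.10. Among the called ligands 1 changed at least 2-fold on this scale in siCTRL cells, as did 2.61% of all genes, and 2 did in siMITF cells, as did 2.98% of all genes.

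Knockdown of MITF moved the ligands in opposite directions. Without IFNγ it raised 2 of the 6 (NECTIN2 and CD47) and lowered 2 (TNFRSF14 and CD274), where 34.8% of all tested genes were called (21% higher and 13.8% lower). With IFNγ it raised 3 (NECTIN2, CD274 and CD47) and lowered 2 (TNFRSF14 and CD276), where 33.1% of all genes were called (18.4% higher and 14.7% lower). The number that changed at least 2-fold was 2 without IFNγ and 1 with it, against 6.17% and 5.74% of all genes. The median over the 6 was -0.02 without IFNγ and 0.27 with it, against 0.06 and 0.03 over all genes. Cells given both treatments differed from siCTRL cells in 5 of the 6 ligands, all but PVR, with 3 higher and 2 lower, in a comparison where 44.5% of all genes were called (21.1% higher and 23.4% lower). Of these, 4 changed at least 2-fold, as did 8.81% of all genes. These comparisons share libraries, so their effects are not independent of each other.

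The effect of IFNγ differed between siMITF and siCTRL cells for 2 of the 6 ligands, CD274 and TNFRSF14, both with the larger rise in siMITF cells. Over all genes this interaction was called for 121 gene IDs, or 0.947%, with 0.705% higher and 0.243% lower in siMITF cells, and 0.478% had an interaction of at least 1 on the log2 scale, as 1 ligand did. At an unadjusted p under 0.05 it was met by 980 of the 12773. A fit blocked on the replicate number called 276 genes and the same 2 ligands.

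**Figure D1:**
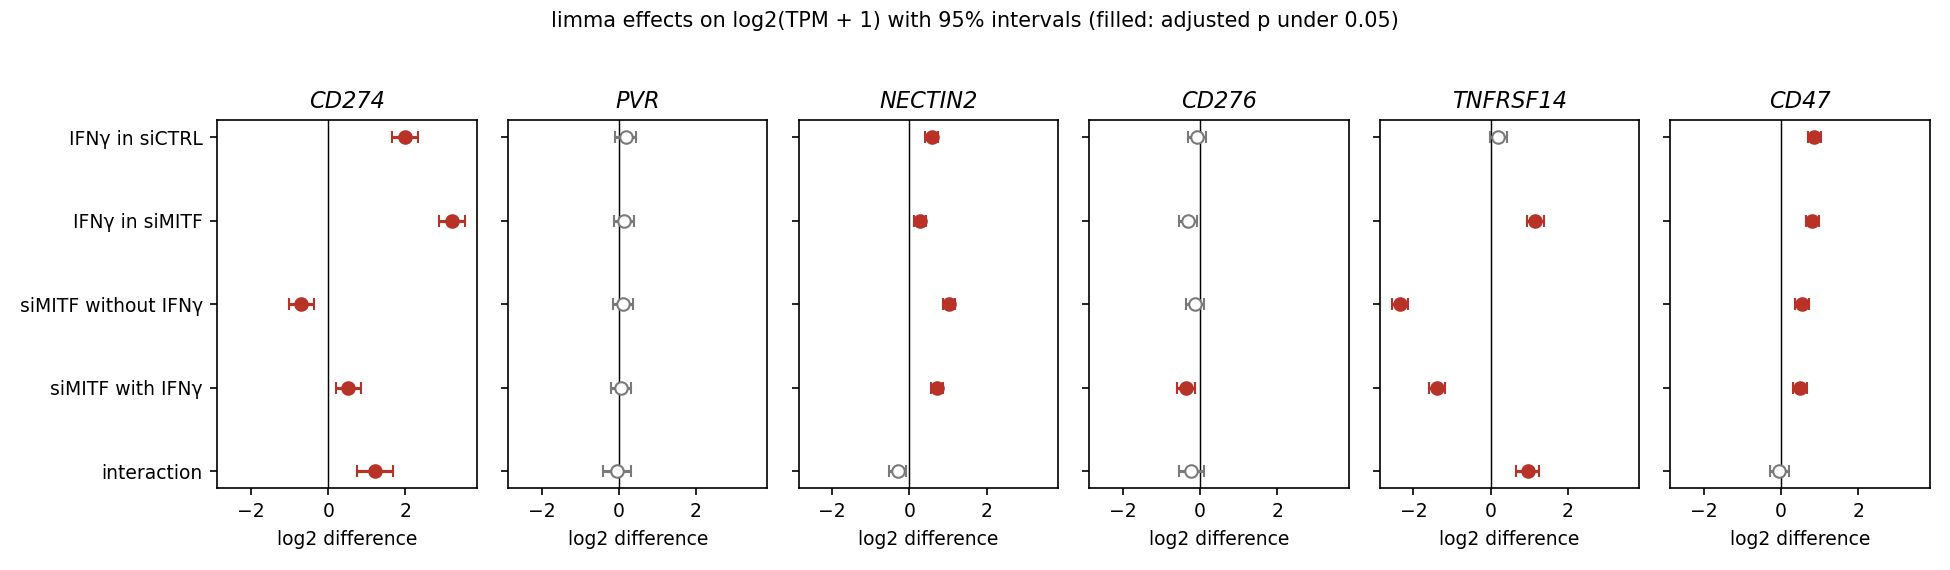
limma effects (points) with 95% intervals (bars) for the 6 tested ligands on the log2(TPM + 1) scale, for IFNγ in each siRNA background, siMITF without and with IFNγ, and their interaction, from 3 libraries per condition. Filled points passed an adjusted p under 0.05: CD274 changed sign between siMITF without IFNγ (-0.70) and with IFNγ (0.52), TNFRSF14 was lower with siMITF in both, and PVR has open points throughout.

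CD274 (ENSG00000120217, GRCh38 chromosome 9 from 5450503 to 5470566, forward strand) encodes PD-L1, the ligand blocked by antibodies in melanoma therapy. It had 1.80, 1.04 and 1.99 TPM in the siCTRL libraries 1 to 3 and 8.46, 9.50 and 9.85 TPM in siCTRL + IFNγ. In the siMITF libraries it fell to 0.636, 0.508 and 0.618 TPM, and in siMITF + IFNγ it stood at 15.8, 11.4 and 14.3 TPM. None of the 4 conditions overlapped, and the order from lowest to highest was siMITF, siCTRL, siCTRL + IFNγ, siMITF + IFNγ. The siMITF cells thus held both the lowest and the highest levels.

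**Figure D2:**
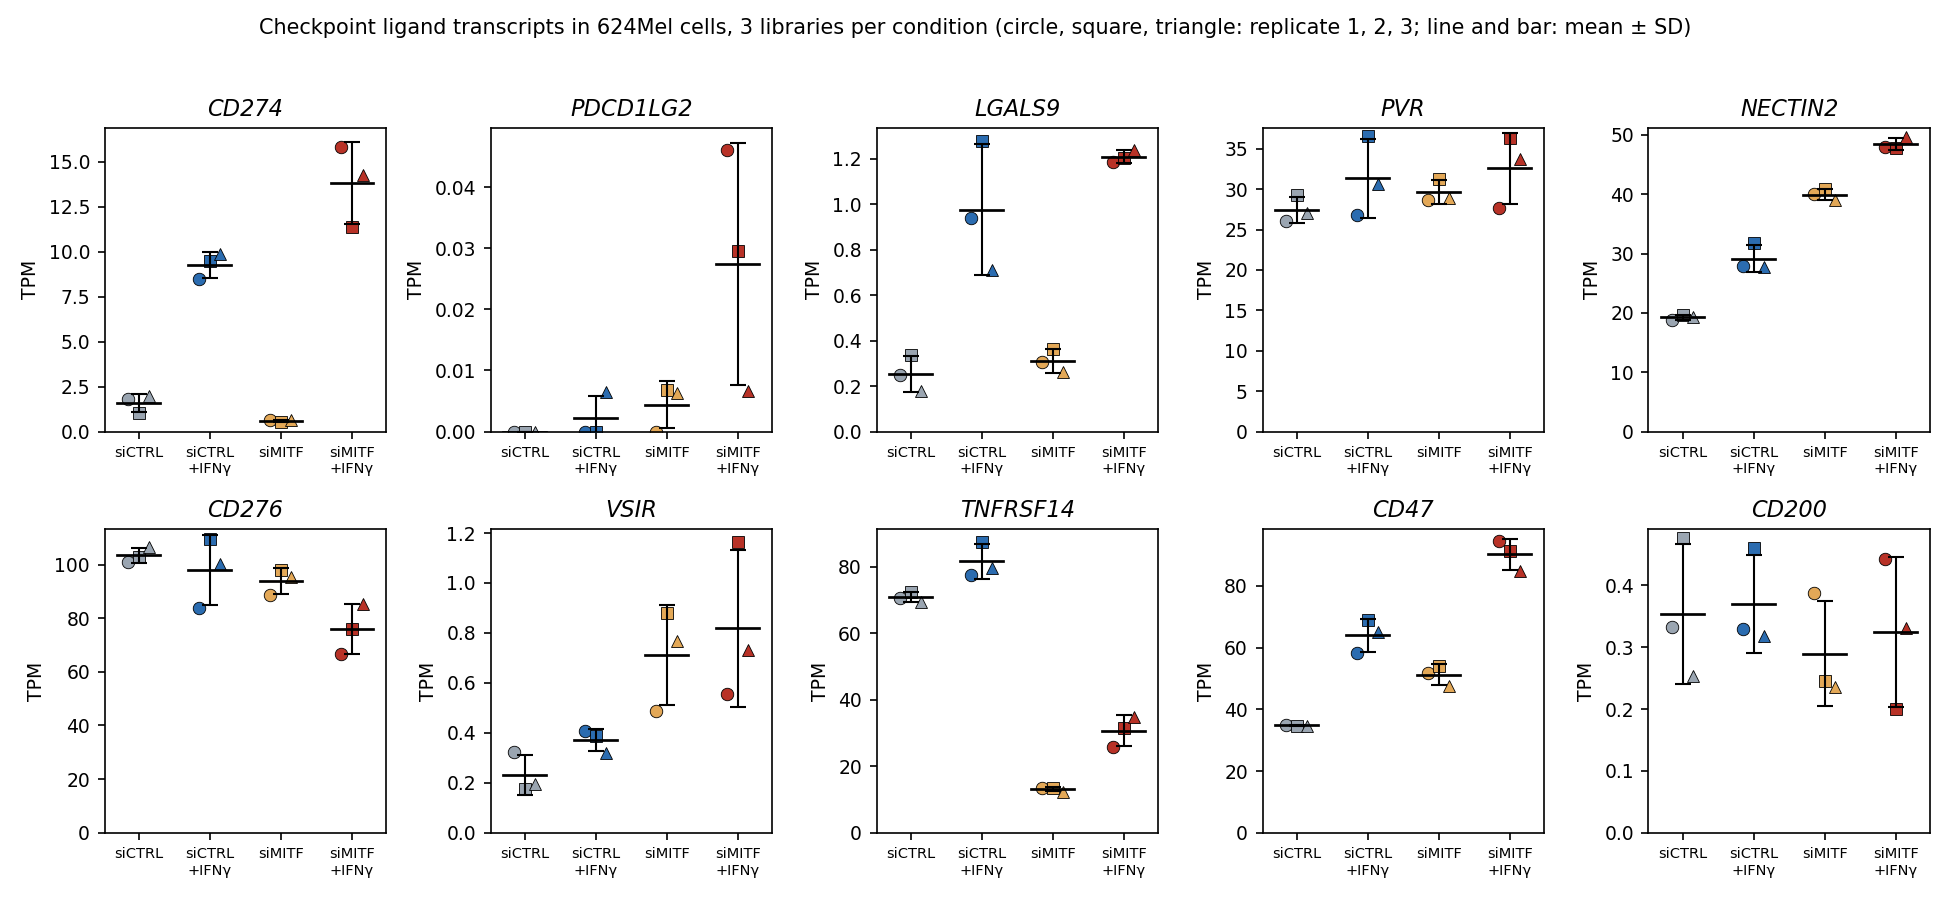
TPM of the 10 ligand genes in each library (circle, square and triangle for replicates 1, 2 and 3) with the mean and SD of each condition (line and bar, n = 3), each gene on its own axis from 0. CD274 reached 13.8 ± 2.27 TPM with siMITF + IFNγ against 9.27 ± 0.720 with siCTRL + IFNγ, while TNFRSF14 was lowest in siMITF libraries at 13.1 ± 0.633 TPM.

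The mean of CD274 rose 5.76-fold with IFNγ in siCTRL cells, from 1.61 ± 0.502 to 9.27 ± 0.720 TPM (SD, n = 3), an effect of 1.99 ± 0.15 (SE) on the log2(TPM + 1) scale with a limma adjusted p of 1.0e-06. In siMITF cells it rose 23.5-fold, from 0.587 ± 0.0694 to 13.8 ± 2.27 TPM (log2 effect 3.21, limma adjusted p = 5.8e-09). The pseudocount of 1 understates the change of a gene this low: with a pseudocount of 0.1 the effects were 2.50 and 4.33. CD274 passed the minimum of 2 TPM through its IFNγ conditions alone, so its IFNγ effects and its interaction rest on that selection. For any single gene, the smallest p that an exact permutation test can reach with 3 libraries per condition is 0.1.

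siMITF alone lowered CD274 2.74-fold (log2 effect -0.70, limma adjusted p = 0.00339), between conditions whose means were both under the minimum of 2 TPM. Under IFNγ, by contrast, the siMITF cells had 1.49-fold more CD274 than siCTRL cells (log2 effect 0.52, 95% interval 0.19 to 0.85, limma adjusted p = 0.0195). This difference under IFNγ did not pass without any 1 of 3 libraries (siCTRL + IFNγ 1, siMITF + IFNγ 1 or siMITF + IFNγ 3), with adjusted p of 0.0571, 0.0656 and 0.0573. The interaction was 1.22 ± 0.22 (SE) with a 95% interval of 0.75 to 1.69 and a limma adjusted p of 0.0168, and 0.00392 with the replicate block. It ranged from 1.11 to 1.39 with each library left out in turn, and its adjusted p rose to between 0.0507 and 0.0580 without siCTRL 1, siCTRL 3, siMITF 2, siMITF 3 or siMITF + IFNγ 3. In TPM, the changes made by siMITF alone and by IFNγ alone, added to the siCTRL mean, come to 8.25, against the 13.8 measured with both treatments. Such an excess is not particular to CD274. It was 5.57 TPM for CD274, 9.82 for CD47, whose log2 interaction was -0.05, and 6.80 for TNFRSF14. PVR, NECTIN2 and CD276 were below their sums.

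The 250 bases before the RefSeq start site of CD274 hold matches to an interferon-stimulated response element (ISRE), the element bound by IRF proteins, searched on both strands as GAAA, any 2 bases and GAAA (TTTC, any 2 bases and TTTC on the strand shown). The stretch is printed because CD274 had the largest IFNγ effect of the 10 genes. It is from RefSeq's GRCh38.p14, chr9:5450292-5450502, forward strand, ends 1 base before the gene's first annotated base in GENCODE, and has 2 overlapping matches in capitals, at -208 to -199 and -202 to -193 from the RefSeq start site.
CD274 upstream region: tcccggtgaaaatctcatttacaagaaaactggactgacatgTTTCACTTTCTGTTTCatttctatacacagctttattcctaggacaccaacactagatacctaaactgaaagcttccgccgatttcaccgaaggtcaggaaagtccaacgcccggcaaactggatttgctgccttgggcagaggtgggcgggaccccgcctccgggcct
In windows from 250 bases before to 50 after the start site, 3.57% of 35116 RefSeq windows had an ISRE match and 0.259% had at least 2. A GAS element, the motif of STAT dimers, searched as TTCNNNGAA (its own reverse complement), matched once, TTCACCGAA at -125 to -117, as it did at least once in 7.66% of windows. The MITF-type E-boxes CACGTG, present in 7.26% of windows, and CATGTG or CACATG, present in 11.1%, had no match in the windows of any of the 9 ligands in the RefSeq table. PDCD1LG2 had no window in that table. A match describes the letters alone; no binding was measured.

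PDCD1LG2 (ENSG00000197646, chromosome 9 from 5510531 to 5571282, forward strand), the gene of PD-L2, lies 39964 bases beyond the end of CD274. It was listed at 0 in 6 of 12 libraries, including the 3 of siCTRL, and its highest value was 0.0462 TPM, in siMITF + IFNγ 1. The siMITF + IFNγ libraries had 0.0462, 0.0295 and 0.00670 TPM and all others no more than 0.00681. The gene was thus near 0 in conditions that changed its neighbour many-fold. When read without the minimum, it was not called in any comparison (lowest limma adjusted p = 0.0553).

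NECTIN2 (ENSG00000130202, chromosome 19 from 44846175 to 44889223, forward strand) encodes an adhesion molecule that binds TIGIT, PVRIG and CD226. It had 18.7, 19.6 and 19.3 TPM in siCTRL, then 27.8, 31.8 and 27.8 with IFNγ. The siMITF libraries had 40.0, 40.8 and 39.0 TPM, and those with both treatments 48.0, 47.8 and 49.6. Each condition was apart from the next, and each treatment alone raised the level. siMITF raised the mean 2.08-fold without IFNγ (log2 effect 1.02, limma adjusted p = 3.8e-07) and 1.66-fold with it (0.72, 8.9e-06). IFNγ raised it 1.52-fold in siCTRL cells (log2 effect 0.57, limma adjusted p = 1.4e-04) and 1.21-fold in siMITF cells (0.27, 0.0189). The IFNγ effect in siMITF cells had an adjusted p of 0.0517 to 0.0719 without any 1 of the libraries siMITF 1, siMITF 2, siMITF 3 and siMITF + IFNγ 3. The interaction was -0.30 (95% interval -0.52 to -0.08), with a limma adjusted p of 0.368. With both treatments the mean was 2.52-fold that of siCTRL.

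PVR (ENSG00000073008, chromosome 19 from 44643798 to 44666162, forward strand), the high-affinity TIGIT ligand, moved little. Its means were 27.5 ± 1.62 TPM in siCTRL, 31.3 ± 4.90 in siCTRL + IFNγ, 29.6 ± 1.47 with siMITF alone and 32.6 ± 4.42 in siMITF + IFNγ (SD, n = 3), and every condition overlapped every other. Library 2 had the highest value of each condition, at 29.2, 36.5, 31.3 and 36.3 TPM. The 95% intervals were -0.09 to 0.43 for IFNγ in siCTRL cells and -0.15 to 0.37 for siMITF without IFNγ. For both treatments against siCTRL the log2 effect was 0.23 with a limma adjusted p of 0.136, and 0.0187 with the replicate block.

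TNFRSF14 (ENSG00000157873, chromosome 1 from 2555639 to 2565382, forward strand) encodes HVEM, a receptor of the TNF family that inhibits T cells through BTLA and CD160 and also binds the cytokine LIGHT. It had 70.6, 72.4 and 69.4 TPM in siCTRL and 77.7, 87.6 and 79.7 in siCTRL + IFNγ, but 13.6, 13.3 and 12.4 in siMITF and 25.8, 31.6 and 34.9 in siMITF + IFNγ. Every siMITF library, with or without IFNγ, lay below every siCTRL library. Knockdown lowered its mean 5.40-fold without IFNγ (log2 effect -2.35, limma adjusted p = 5.2e-09), which put it at the 0.329 percentile of the effects of all tested genes, and 2.65-fold with IFNγ (-1.39, 4.5e-07).

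IFNγ more than doubled TNFRSF14 in siMITF cells, by 2.35-fold (log2 effect 1.16, limma adjusted p = 2.9e-06), but did not restore the siCTRL level: with both treatments the mean was 2.30-fold lower than in siCTRL. In siCTRL cells the IFNγ effect was 0.20 (95% interval -0.02 to 0.42, limma adjusted p = 0.225). The interaction was 0.96 ± 0.14 (SE), with an interval of 0.65 to 1.27 and a limma adjusted p of 0.00529, and it stayed under 0.05 in each of the 21 alternatives. TNFRSF14 and CD274 thus had the same sign of interaction with opposite orders of the siRNA arms under IFNγ: CD274 ended above its siCTRL + IFNγ level and TNFRSF14 below.

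CD276 (ENSG00000103855, chromosome 15 from 73683966 to 73714514, forward strand) encodes B7-H3, a B7 family protein abundant on many tumours. It was the highest of the 10 ligands in the siCTRL libraries, at 101, 103 and 106 TPM, and had 83.9, 110 and 100.1 TPM there with IFNγ. With siMITF it had 88.5, 97.9 and 95.3 TPM, and 66.6, 75.9 and 85.2 with siMITF + IFNγ. The siMITF + IFNγ libraries were the lowest, though 1 of them overlapped siCTRL + IFNγ. Under IFNγ, siMITF lowered CD276 by 0.36 on the log2 scale (limma adjusted p = 0.0191), with an adjusted p of 0.0925 when only those 2 conditions were fitted and of 0.0707, 0.0655 and 0.0630 without siCTRL + IFNγ 2, siCTRL + IFNγ 3 or siMITF + IFNγ 1. With both treatments the mean was 1.36-fold lower than in siCTRL (log2 effect -0.45, limma adjusted p = 0.00421). IFNγ in siMITF cells had an effect of -0.31 (limma adjusted p = 0.0573), and an adjusted p of 0.00630 with the replicate block.

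VSIR (ENSG00000107738, chromosome 10 from 71747556 to 71773520, reverse strand), the gene of VISTA, a B7-like protein of myeloid cells, stayed between 0.177 and 1.16 TPM. The siCTRL libraries had 0.322, 0.177 and 0.196 TPM and the siMITF libraries 0.489, 0.880 and 0.767, without overlap. Read without the minimum, it rose with siMITF by 0.47 on the log2 scale (limma adjusted p = 0.0259). Under IFNγ the siMITF effect was 0.39 (limma adjusted p = 0.0575).

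LGALS9 (ENSG00000168961, chromosome 17 from 27629798 to 27649560, forward strand) encodes galectin-9, a secreted lectin that binds TIM-3. It had 0.246, 0.337 and 0.179 TPM in siCTRL and 0.939, 1.28 and 0.709 in siCTRL + IFNγ, and 0.306, 0.364 and 0.260 in siMITF and 1.19, 1.20 and 1.24 in siMITF + IFNγ. All IFNγ libraries lay above all libraries without IFNγ, yet at about 1 TPM. Read without the minimum, its IFNγ effect was 0.65 in siCTRL cells (limma adjusted p = 0.00303) and 0.76 in siMITF cells (7.9e-04), with an interaction of 0.11 (0.894). The near-identical copies LGALS9B and LGALS9C were at no more than 0.322 and 0.349 TPM, and reads that fit more than 1 of these genes make the split between them uncertain. LGALS9 is the other ligand with an ISRE match, shown in capitals at -9 to 1 of its RefSeq start site (GRCh38.p14, chr17:27631169-27631198, forward strand, within the gene's span in GENCODE).
LGALS9 start site: gttgctttggTTTCTATTTCtttgttaagt
The windows of the other 7 ligands with one had no ISRE or GAS match, CD47 and NECTIN2 among them, which also rose with IFNγ.

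CD47 (ENSG00000196776, chromosome 3 from 108043091 to 108091862, reverse strand) had 35.0, 34.6 and 34.6 TPM in siCTRL and 58.1, 68.8 and 64.9 in siCTRL + IFNγ, and 51.8, 54.1 and 47.6 in siMITF and 94.6, 91.4 and 84.7 in siMITF + IFNγ. No condition overlapped another, and with both treatments the level was highest. IFNγ raised the mean 1.84-fold in siCTRL cells (log2 effect 0.86, limma adjusted p = 8.2e-06) and 1.76-fold in siMITF cells (0.81, 1.3e-05). siMITF raised it 1.47-fold without IFNγ (log2 effect 0.54, limma adjusted p = 2.0e-04) and 1.41-fold with it (0.49, 4.8e-04). The interaction was -0.05 with a 95% interval of -0.30 to 0.20, so the difference between the IFNγ effects was bounded to 0.30 on the log2 scale. The mean with both treatments was 2.60-fold that of siCTRL.

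CD200 (ENSG00000091972, chromosome 3 from 112332347 to 112362812, forward strand), whose product restrains myeloid cells through CD200R1, stayed between 0.199 and 0.477 TPM in all 12 libraries. Its conditions overlapped, and without the minimum no comparison was called (lowest limma adjusted p = 0.703).

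TPM are scaled to transcript length, which allows levels of different genes to be set side by side. In siCTRL libraries CD276 was highest at 103 ± 2.69 TPM, followed by TNFRSF14 at 70.8 ± 1.51, CD47 at 34.8 ± 0.194, PVR at 27.5 ± 1.62, NECTIN2 at 19.2 ± 0.466 and CD274 at 1.61 ± 0.502 (SD, n = 3), with no overlap between neighbours. In siMITF + IFNγ libraries CD47 was highest at 90.2 ± 5.06, CD276 followed at 75.9 ± 9.28 with overlap between them, and NECTIN2 came next at 48.5 ± 0.997. PVR at 32.6 ± 4.42 and TNFRSF14 at 30.8 ± 4.58 overlapped, and CD274 at 13.8 ± 2.27 remained the lowest of the 6. CD274, with the largest IFNγ effects, had the lowest mean of the 6 in every condition.

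Of 13 genes on the route from the IFNγ receptor to PD-L1, all tested, 6 were called higher and none lower with IFNγ in siCTRL cells. In siMITF cells 7 were called higher and none lower. Over all tested genes 12.9% and 20.2% were called. The replicate block also called 1 of the 13 lower in siCTRL cells and 2 in siMITF cells. Of all 12773 gene IDs, that fit called 2046 and 3130 lower in these comparisons. The transcription factor gene IRF1 rose most, from 2.49 ± 0.292 to 88.0 ± 12.8 TPM in siCTRL cells (log2 effect 4.66, limma adjusted p = 2.2e-11) and from 3.08 ± 0.247 to 155 ± 19.1 in siMITF cells (5.25, 5.2e-12). The others named by size in siCTRL cells were STAT2 (2.49) and IRF9 (2.24), which act in 1 transcription factor complex in interferon signalling, and SOCS1 (1.91), an inhibitor of JAK kinases, and in siMITF cells IRF9 (2.86), STAT2 (2.49) and SOCS1 (2.03). The kinase gene JAK2 was not called in any comparison (log2 effects of 0.06 and 0.26 for IFNγ, limma adjusted p = 0.873 and 0.348). The median effect over the list was 0.15 in siCTRL and 0.32 in siMITF cells, against -0.07 and -0.10 over all genes.

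siMITF without IFNγ raised 2 of these 13 genes and lowered 2. Over all genes 34.8% were called for siMITF without IFNγ and 33.1% with it. SOCS1 rose by 1.16 and STAT3 by 0.50, and IRF9 fell by 0.69 and CMTM6, whose product protects PD-L1 from degradation, fell by 0.60. The SOCS1 means compared here, 0.268 and 1.84 TPM, were both under the minimum of 2 TPM. Under IFNγ siMITF raised SOCS1 by 1.28 and IRF1 by 0.82 (limma adjusted p = 2.3e-04), and lowered CMTM6 by 0.33 (0.0112). CMTM6 had 59.9 ± 3.43 TPM in siCTRL and 39.2 ± 1.92 in siMITF libraries. The interaction, called for 0.947% of all genes, was called for IRF9 alone of the 13 (0.61, limma adjusted p = 0.0448), and that of IRF1 was 0.59 (0.210). None of the 13 was called in 10 of the 12 fits that left out 1 library, all but those without siCTRL 1 or siCTRL + IFNγ 2. The replicate block took the genes called for siMITF with IFNγ to 5 (4 higher and 1 lower), in a fit that called 5912 of the 12773 gene IDs. The list medians were -0.01 and -0.0013 for siMITF without and with IFNγ, against 0.06 and 0.03 over all genes.

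**Figure D3:**
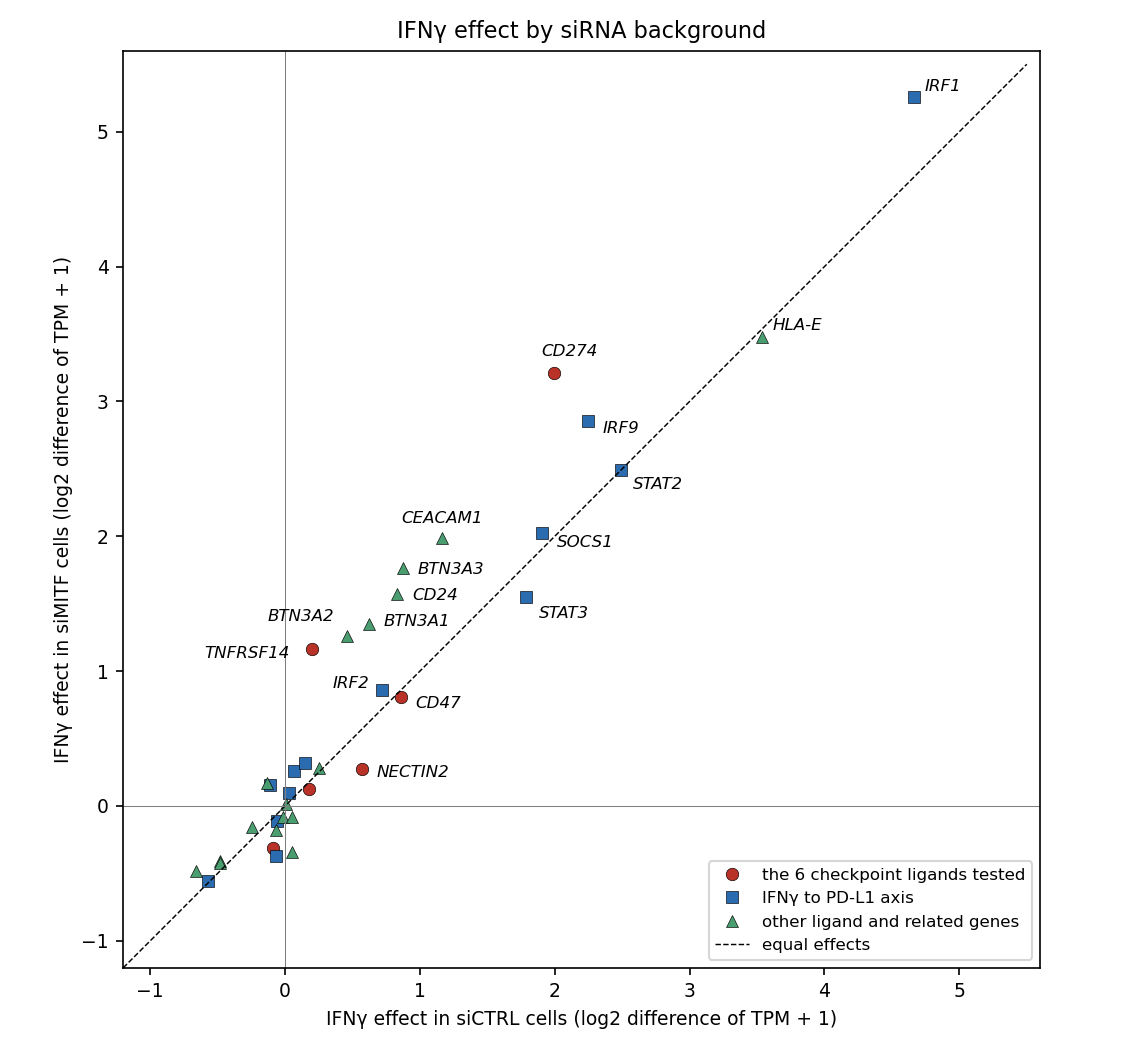
IFNγ effect in siCTRL cells (x axis) and in siMITF cells (y axis), both as log2 differences of TPM + 1 from limma, for the 6 tested ligands (circles), the 13 genes from the IFNγ receptor to PD-L1 (squares) and 17 other ligand and related genes (triangles); the dashed line marks equal effects. CD274 (1.99 and 3.21) and TNFRSF14 (0.20 and 1.16) lie above the line, CD47 (0.86 and 0.81) lies close to it and NECTIN2 (0.57 and 0.27) below.

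A list of 30 other genes, 17 of them tested, held ligands of the B7, butyrophilin, nectin, galectin and TNF families, surface proteins of other families such as HLA-E, CEACAM1, CD24 and CD58, the receptor gene CD40 and QPCTL, whose enzyme modifies CD47. IFNγ raised 5 and lowered 3 in siCTRL cells and raised 6 and lowered 2 in siMITF cells. Over all genes 12.9% and 20.2% were called. HLA-E, the ligand of the inhibitory receptor NKG2A, rose by 3.53 in siCTRL and by 3.48 in siMITF cells, from 14.0 ± 1.53 to 172 ± 19.2 TPM in the former. CEACAM1, an inhibitory ligand of itself and of TIM-3, rose by 1.17 and 1.99, BTN3A3, a butyrophilin of the group that presents phosphoantigen signals to γδ T cells, by 0.88 and 1.77, and CD24, a Siglec ligand, by 0.83 and 1.57. Without siCTRL 3 or siCTRL + IFNγ 3, 5 genes were called in siCTRL cells in place of 8. The list median was 0.05 in siCTRL and 0.01 in siMITF cells, against -0.07 and -0.10 over all genes.

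siMITF raised 7 and lowered 4 of the 17 without IFNγ, and raised 7 and lowered 5 with it. Over all genes 34.8% and 33.1% were called. LGALS3, the gene of galectin-3, fell by 2.24 without IFNγ, from 463 ± 19.8 to 97.2 ± 2.41 TPM, and fell by 1.93 with it. CD24 rose by 1.26 without IFNγ and from 2.45 ± 0.709 to 12.6 ± 0.642 TPM with it, NECTIN3 by 0.97 and 1.03, and CEACAM1 fell by 1.27 without IFNγ. NECTIN1 rose by 1.05 with IFNγ. The list medians were 0.07 and 0.28, against 0.06 and 0.03 over all genes.

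Over all genes the interaction was called for 0.947%, and with the replicate block for 276 of 12773 gene IDs. CEACAM1 was the only one of the 17 with a called interaction (0.82, limma adjusted p = 0.00498), and with the replicate block 5 were called. Its level was 61.3, 59.6 and 59.5 TPM in siCTRL, 122, 148 and 140 with IFNγ there, 24.2, 26.2 and 22.7 with siMITF alone and 93.8, 102 and 103 with both treatments. The 4 conditions did not overlap, and as for TNFRSF14 the siMITF cells stayed below the siCTRL cells at each IFNγ state.

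**Figure D4:**
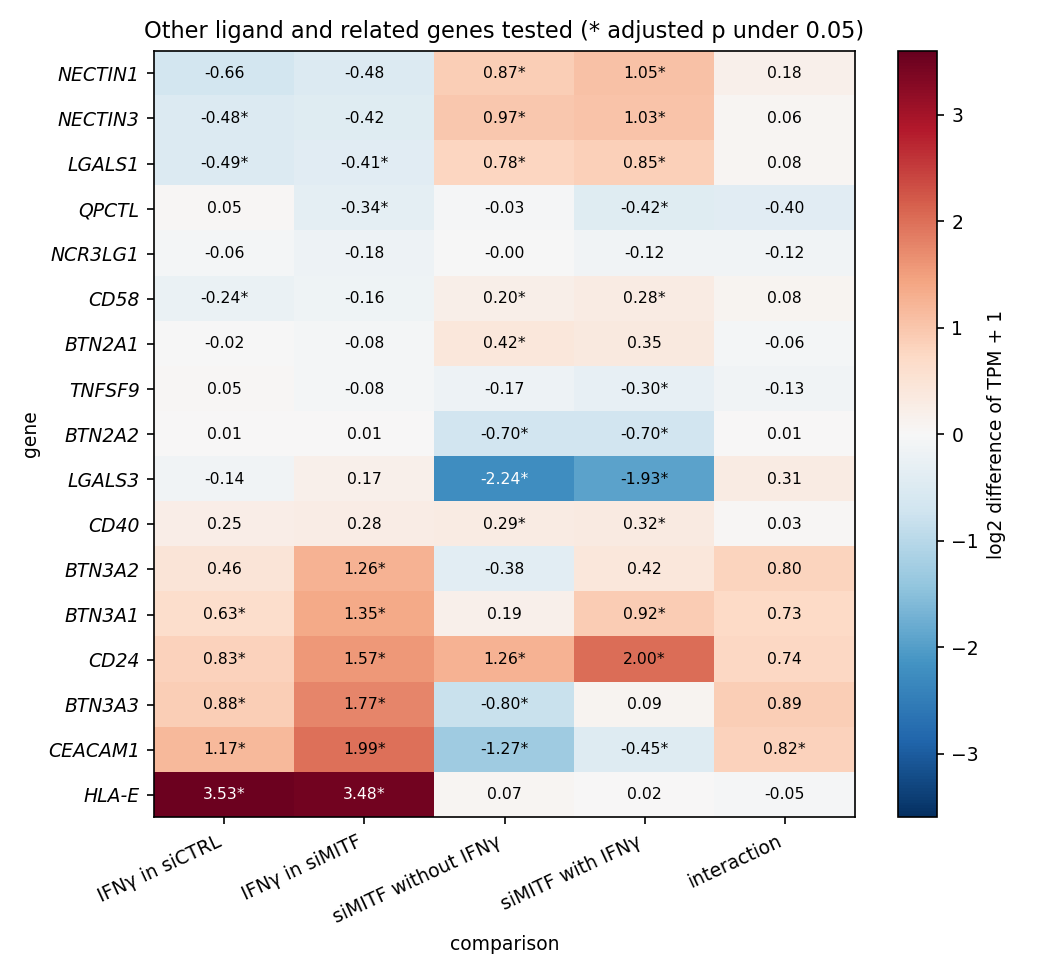
limma effects on the log2(TPM + 1) scale for the 17 tested genes among 30 other ligand and related genes, 1 row per gene and 1 column per comparison (red higher, blue lower, asterisk for an adjusted p under 0.05). HLA-E has the highest IFNγ effects (3.53 and 3.48), LGALS3 the lowest siMITF effects (-2.24 and -1.93), and CEACAM1 the one called interaction (0.82).

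Of 16 genes of receptors and partners of these or other checkpoint ligands, 11 were under the minimum. PDCD1, the gene of PD-1, was at 0 in 11 of 12 libraries. The list includes CTLA4 and LAG3, which are not established receptors of the ligands followed here. Among the 5 tested, SIRPA, the CD47 receptor, fell by 0.93 with siMITF without IFNγ (102 ± 5.96 to 53.0 ± 3.19 TPM, limma adjusted p = 5.1e-05) and fell by 0.92 with it. CD47 rose in the same comparisons. CD96, a receptor of PVR, rose with siMITF by 0.50 and 0.78 and fell by 0.91 with IFNγ in siCTRL cells and fell by 0.62 in siMITF cells, at levels of 1.28 to 5.00 TPM in the means. Its rise without IFNγ was not called without siCTRL 1, siCTRL 3, siMITF 2 or siMITF 3, nor its fall in siMITF cells without siMITF 2 or siMITF + IFNγ 2. RGMB, IGSF11 and CTLA4 were not called. Over all genes 34.8% were called for siMITF without IFNγ and 33.1% with it. For IFNγ the shares were 12.9% in siCTRL and 20.2% in siMITF cells. With the replicate block, CTLA4 and RGMB were called for siMITF with IFNγ, which made 4 of the 5. In that comparison the blocked fit called 5912 of the 12773 gene IDs. It also called CTLA4 for IFNγ in siMITF cells and for both treatments, where 4556 and 7262 gene IDs were called.

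The genes whose levels followed each ligand most closely over the 12 libraries were taken by Pearson's r on log2(TPM + 1), as a description, since the 4 conditions shared by all genes set most of it. For CD274 they were TNFSF13B (0.993), HLA-F (0.988), TRIM34 (0.985), TNFRSF21 (0.984) and ERP44 (0.982), for NECTIN2 PRAF2, MT2A, CCL2, RHOU and CNN2 (0.991 to 0.995), for TNFRSF14 RAB27A (0.992), PLAAT3, TESK2, SLC16A6 and HEY1, and for CD47 ACOX2 (0.991), RETREG1, S100A11, SERPINB8 and MVB12A. With each library centred on its median, 4 of the 5 genes remained for CD274 and for NECTIN2, and 3 of 5 for TNFRSF14 and for CD47. For CD276 the first was USB1 (0.978) and for PVR RUNDC1 (0.968), and 2 and 1 of their 5 genes remained.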

How the data were processed

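RNA from 12 libraries of 624Mel cells (TruSeq RNA v2, a kit that does not mark strand) was sequenced on a NovaSeq6000. Per the labels, the authors used Trimmomatic 0.39 for trimming and kallisto for quantification against Ensembl's GRCh38 transcripts, and deposited 1 table of TPM per Ensembl gene ID; the Ensembl release and the step from transcripts to genes are not given in the sources used here. The authors' own tests used DESeq2 1.26.0 on counts, which are not used here. TPM sums were 975336 to 982632 per library.

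Groups were taken from the sample labels. Values were transformed to log2(TPM + 1), gene IDs were kept where some condition averaged 2 TPM or more, and limma 3.58.1 (R 4.3.3) was fitted to the 12 libraries with 1 term per condition and an intensity trend. Tests were two-sided with Benjamini-Hochberg adjustment over 12773 gene IDs. The fit was tested on simulated data. Symbols and positions were from GENCODE v44, and promoter windows from RefSeq. Python 3.11.15 made the tables and figures. The named genes were the 10 ligands, up to 4 called genes of each list with the largest effects per comparison, IRF1, JAK2 and CMTM6 in any case, and the 5 genes most alike for each tested ligand. An item of the lists is not reported here, and counts over them leave it out. The ligands, lists and tests were chosen with earlier results of these data known.

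Replicate numbers in the labels were checked for pairing. After subtraction of condition means, the 18 pairs of same-numbered libraries had correlations across genes of 0.10 to 0.63 (median 0.28). Pairs with different numbers had -0.47 to 0.23 (median -0.20), so the ranges overlapped. Deviations within a condition cancel out, so positive values in same-numbered pairs bring negative ones in the others. All 18 were over 0.1, so the numbers were taken to pair the libraries, and a fit with the replicate number as a block was read beside the main fit. Other alternatives were pseudocounts of 0.1 and 0.5, no filter, a mean of at least 5 TPM, quantile normalization, median centring, no trend, only the conditions compared, and each library left out. TPM rescaled without mitochondrial genes, the 4 low ligands without the filter and the lists under the alternatives were added after seeing the data.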

Additional observations from a re-analysis of the deposited data

Results flagged for a closer look

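The response to IFNγ differed between the siRNA backgrounds for 2 ligands by a test of the difference itself (the interaction in limma, adjusted over all tested genes). CD274 rose by 1.22 more on the log2(TPM + 1) scale in siMITF than in siCTRL cells (adjusted p = 0.0168), with a higher response in each fit that left out 1 library. Its call was lost without siCTRL 1, siCTRL 3, siMITF 2, siMITF 3 or siMITF + IFNγ 3 (adjusted p of 0.0507 to 0.0580), and without the filter on low values (0.0664). Because CD274 passed that filter through its IFNγ conditions alone, its interaction rests on that selection. TNFRSF14 rose by 0.96 more (adjusted p = 0.00529), from a level that siMITF had lowered 5.40-fold.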

How the results depend on the processing

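Of 606 recomputed effects of the 6 ligands, 574 kept their side of the threshold, 19 fell below it and 13 rose above it. None of the called effects reversed, but uncalled effects that changed sign were counted among the 574. An example is CD276 with IFNγ in siCTRL cells, at -0.09 in the main fit and between -0.17 and 0.02 in the alternatives. In every alternative run, 27 of the 36 effects kept their side of the threshold. The number of ligands called with IFNγ in siCTRL cells was 5 with quantile normalization, where PVR (adjusted p = 0.0205) and TNFRSF14 (0.0287) were added. The number with a called interaction was 1 without the filter on low values, where CD274 had an adjusted p of 0.0664, and 1 to 2 with each library left out. For siMITF with IFNγ, fits without 1 library called 3 to 5 ligands, and CD274 had an adjusted p of 0.0640 with a pseudocount of 0.1 and 0.0561 without the filter. CD276 with IFNγ in siMITF cells had an adjusted p of 0.0208 with quantile normalization, 0.00982 with median centring and 0.0277 without siMITF + IFNγ 3. PVR with both treatments had 0.00176 with quantile normalization, 0.00455 with centring, 0.0243 without mitochondrial genes and 0.0316 without siMITF + IFNγ 1. The replicate block changed no other ligand's call than those given beside CD276 and PVR. Over all genes, interactions numbered 68 with a pseudocount of 0.1, 65 with at least 5 TPM, 294 with quantile normalization, 263 with centring and 220 without mitochondrial genes, against 121, and 73 without siMITF 3. Calls for IFNγ in siCTRL cells numbered 2825, 2814, 3281 and 1078 with quantile normalization, centring, the block and only the conditions compared, against 1652, and 1057 without siCTRL + IFNγ 3, and the share of higher ones, 52.5%, was 41.7% with quantile normalization, 37.6% with the block, 65.1% with only the conditions compared, and 37.6% (without siCTRL + IFNγ 2) to 73.0% (without siCTRL 2) with 1 library left out. Without siCTRL 2 the lower calls numbered 287, and without siCTRL + IFNγ 1, 385, against 784. Those for IFNγ in siMITF cells numbered 3996 with quantile normalization and 4556 with the block, against 2574, and 1647 without siMITF 2. For siMITF with IFNγ, 2736 were called with only those conditions, against 4229. The causes were not tested. Read depth is unknown, so counting error for CD274 and the low ligands cannot be given.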

Other observations

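CTLA4, an inhibitory receptor best known from T cells, was listed at 9.66 to 18.0 TPM in siCTRL, 10.5 to 23.4 in siCTRL + IFNγ, 6.70 to 22.6 in siMITF and 13.2 to 55.8 in siMITF + IFNγ. It was thus detected in all 12 libraries, in which CD3E was at 0, and was above the level of CD274 in all but 1 of them. Its spread within conditions was wide, and no comparison was called (lowest limma adjusted p = 0.137, and 0.00713 for the same comparison with the replicate block). BTN3A1, BTN3A2 and BTN3A3, neighbours in 1 butyrophilin group with closely similar sequences, had log2 interactions of 0.73, 0.80 and 0.89, for which limma gave adjusted p of 0.396, 0.220 and 0.0938, and of 0.0277, 0.0196 and 0.0196 with the replicate block. Reads shared between such similar genes can make their values move together, which was not tested.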
